A study of Mus musculus with 12 samples.

Results

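The matrix-binding integrins were 10 genes of the 43686 in the table, taken by name: the 7 α subunits Itga1, Itga5, Itga6, Itga7, Itga8, Itga11 and Itgav, and the 3 β subunits Itgb1, Itgb3 and Itgb5. Each name matched 1 row, and all 10 were among the 17155 rows that passed the filter on low counts. Ventricular wall RNA was sequenced in 6 libraries per genotype, and the comparison asks how loss of Sdhaf4, an assembly factor of mitochondrial complex II, changes the heart's transcripts. The WT mice were Sdhaf4fl/fl littermates that carried the floxed alleles without Cre. The KO mice were Sdhaf4fl/fl with Ckmm-Cre, in which the muscle creatine kinase promoter drives Cre in cardiac and skeletal muscle, so the deletion is directed to muscle cells and not to the other cell types of the wall. The labels give the strain as C57BL/6, the genotypes as wild type and Sdhaf4-/-, and the age as 2 months, while the study's text gives 6 weeks and its reporting summary describes omics samples from males aged either 3 weeks or 8 weeks. The labels number the libraries of each genotype without saying that each came from its own mouse, so p-values measure the spread between these samples. Because the WT mice had no Cre, the effect of the Cre transgene and that of the deletion cannot be told apart.

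Integrins are receptors made of an α and a β chain that span the cell membrane and tie the extracellular matrix to the actin cytoskeleton. The α chain largely sets the ligand. The α1 and α11 chains bind collagens, the α6 and α7 chains bind laminins, and the α5, α8 and αv chains bind ligands that carry the RGD motif, such as fibronectin and vitronectin. The β1 chain is the partner of most of these α chains, whereas αv also pairs with β3 and β5. In cardiomyocytes, α7β1 sits at the costameres that couple the sarcomere to the basement membrane, and fibroblasts use α1β1, α11β1, α5β1 and the αv integrins on collagen and fibronectin.

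The upstream sequences of the genes whose KO and WT levels did not overlap are shown first, so that the values can be read beside their promoters. Of these 4 genes, the RefSeq promoter table (GRCm38.p6) holds Itga11, Itga5 and Itgav. Each sequence is the 250 bases before the transcription start, read 5′ to 3′ on the gene's strand, with capitals marking the Sp1 motif GGGCGG on either strand.
Itga11, chr9:62677605-62677854, plus strand: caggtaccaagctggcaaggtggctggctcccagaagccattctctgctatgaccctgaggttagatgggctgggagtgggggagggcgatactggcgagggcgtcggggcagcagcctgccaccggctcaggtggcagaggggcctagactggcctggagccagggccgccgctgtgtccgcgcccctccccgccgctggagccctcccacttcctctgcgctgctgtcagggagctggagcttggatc
Itga5, chr15:103366792-103367041, minus strand: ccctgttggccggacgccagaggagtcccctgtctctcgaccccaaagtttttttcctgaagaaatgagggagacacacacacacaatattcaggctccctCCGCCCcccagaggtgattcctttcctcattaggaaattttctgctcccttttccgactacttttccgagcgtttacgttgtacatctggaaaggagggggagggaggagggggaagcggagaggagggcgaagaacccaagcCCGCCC
Itgav, chr2:83724147-83724396, plus strand: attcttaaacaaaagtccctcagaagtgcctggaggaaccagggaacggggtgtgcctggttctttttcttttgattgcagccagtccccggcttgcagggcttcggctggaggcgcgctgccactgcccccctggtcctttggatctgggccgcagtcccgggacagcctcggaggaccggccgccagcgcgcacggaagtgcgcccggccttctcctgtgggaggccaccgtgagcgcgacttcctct

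The Itga5 promoter held 2 Sp1 matches and those of Itga11 and Itgav held none. In all, 7 of the 10 members had an entry, and 3 of these 7 (Itga5, Itgb1 and Itgb5) held the Sp1 motif, against 32.7% of all 32851 promoters of the same length. The HIF core ACGTG was in 0 of 7 (16.6% of all), the AP-1 motif TGANTCA in 0 of 7 (6.75% of all), the CArG box of serum response factor in 0 of 7 (1.47% of all) and the TEAD motif GGAATG in 1 of 7, Itgb1 (12.6% of all). Both strands were searched for each motif. The GC content of the 7 sequences ran from 55.6% to 68.4%, with a median of 52.4% over all promoters. These counts describe letters in a window and not binding.

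The libraries held 23747014 to 27159228 counts in WT and 26542930 to 31393393 in KO. The targeted gene, Sdhaf4, averaged 25.2 CPM (counts per 1000000 reads, scaled by the TMM method) in WT and 2.40 in KO (log2 fold change -3.39 ± 0.16 SE, edgeR adjusted p = 1.95e-10), and its levels did not overlap between the groups. The cardiomyocyte marker Myh6, the main myosin heavy chain of the adult mouse ventricle, averaged 16530 CPM in WT and 14420 CPM in KO and was picked, outside the naming rule, as a check of the tissue. KO replicates 3 and 6 stood apart from the other 4 KO libraries in several integrins: one or the other was the lowest KO library in 9 of the 10 members, and they were the lowest pair in 5. How often this held over all rows was not counted, so it is not shown to be particular to the integrins. Without both, the log2 fold changes were 0.38 for Itga1, 0.57 for Itga5, 0.57 for Itga6, -0.03 for Itga7, 0.62 for Itga8, 1.44 for Itga11, 0.40 for Itgav, 0.25 for Itgb1, 2.10 for Itgb3 and 0.32 for Itgb5, and 9 of the 10 passed the test, all but Itga7 (26.2% of all rows were higher in that fit). These 2 libraries were left out because of their low values in the same genes, which by construction raises the KO level of the genes in which they are low, so these values describe the other 4 KO libraries and are no support for a rise.

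Of the 10 matrix-binding integrins, 8 were higher in KO hearts, 0 were lower and 2, Itga7 and Itga8, did not pass the test. Itgb3 showed the largest fold change among them (3.99-fold), followed by Itga11 (2.28-fold) and Itga5 (1.47-fold), and the other 5 that rose did so by 1.13-fold to 1.31-fold. Counts were tested with the quasi-likelihood method of edgeR, and p-values were adjusted after Benjamini and Hochberg over all 17155 rows, with a threshold of 0.05. By the same rule 25.6% of all rows were higher in KO and 25.5% were lower. The median log2 fold change was 0.35 for the members and 0.00 for all rows tested. Only Itgb3 and Itga11 passed the stricter thresholds of an adjusted p of 0.005 and a log2 fold change of 1, which 5.36% of all rows passed in the upward direction. In 4 members, Itga5, Itga11, Itgav and Itgb3, every KO library lay above every WT library, which held for 14.9% of all rows. In bulk tissue, fewer or more cells of a type and less or more RNA per cell cannot be told apart. Counts were made per gene, so splice forms of a subunit, such as the muscle form of β1, were not resolved.

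**Figure D1:**
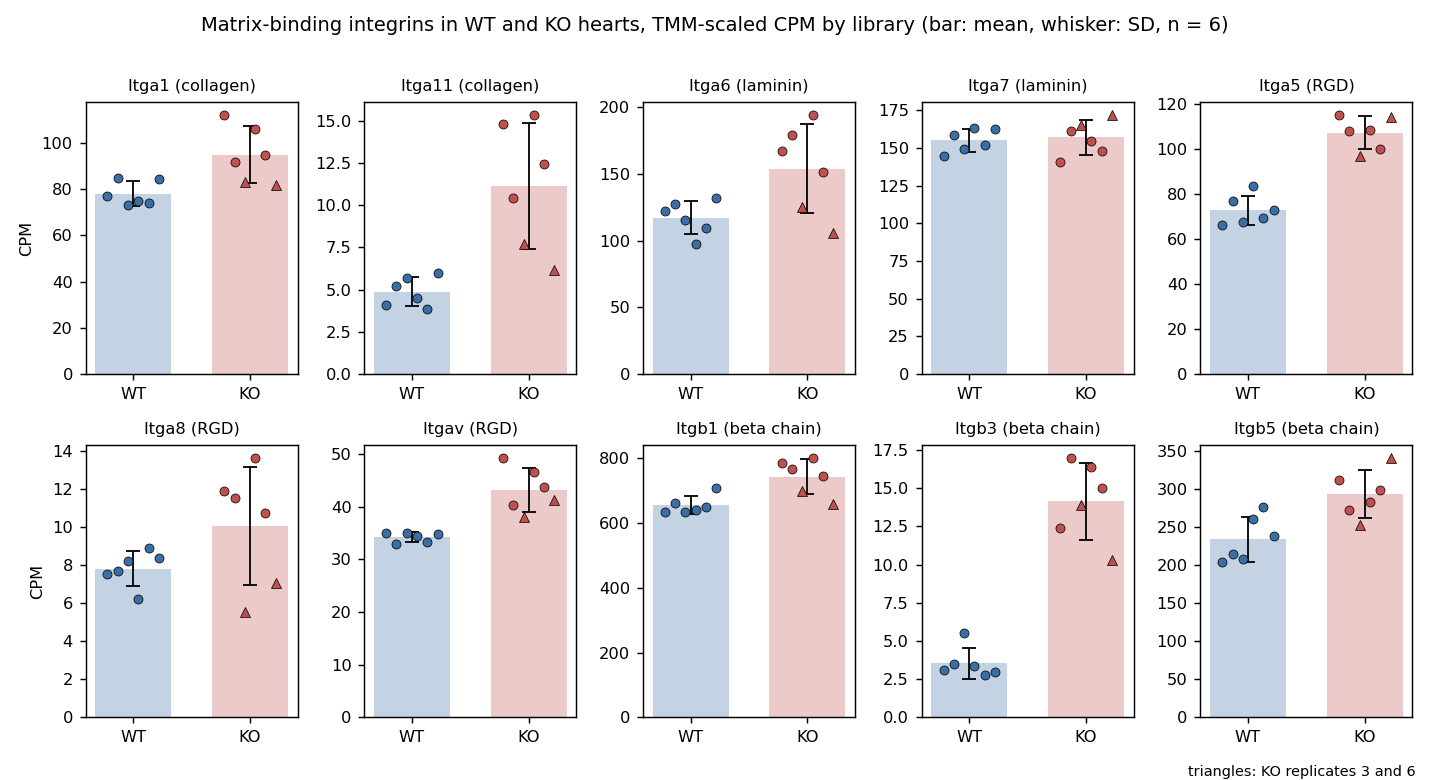
TMM-scaled CPM (y axis, from 0) of each matrix-binding integrin in the 6 WT and 6 KO libraries. Bars give the mean, whiskers the SD and points the libraries, with KO replicates 3 and 6 as triangles. The KO points of Itga5, Itga11, Itgav and Itgb3 all lie above the WT points, while those of Itga7 lie among them.

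Both collagen receptor subunits rose. Itga1, the α chain of the main collagen receptor of cardiac fibroblasts and vessel walls, lies on chromosome 13 (121136839 to 121295330, minus strand, C57BL/6NJ assembly, as all positions of members below). Its level had a lowest, median and highest value of 73.3, 76.1 and 84.8 CPM in WT and of 81.8, 93.3 and 112 CPM in KO. KO replicates 1, 2, 4 and 5 lay above all WT libraries, and KO replicates 3 and 6 lay within the WT range. The log2 fold change was 0.28 ± 0.07 SE (edgeR adjusted p = 0.00442; two-sided exact permutation test of this gene alone, p = 0.013). Pelo, a ribosome rescue factor, lies inside the span of Itga1 with at most 735 counts in a library against 1824 to 3489 for Itga1, and how reads in the shared span were assigned is not stated.

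Itga11, the α chain of a receptor for fibrillar collagen that is found mainly on fibroblasts, rose more and from a low level. It lies on chromosome 9 (63938755 to 64061300, plus strand). Its lowest, median and highest values were 3.88, 4.85 and 6.00 CPM in WT and 6.16, 11.4 and 15.4 CPM in KO. The groups did not overlap, but KO replicate 6 (6.16 CPM) stood close to the highest WT library and KO replicate 3 (7.72 CPM) was the next lowest of the KO libraries. The resulting log2 fold change was 1.19 ± 0.21 SE (edgeR adjusted p = 0.000235; exact permutation p = 0.00216, the smallest that 6 against 6 libraries allow). The value was 1.44 without KO replicates 3 and 6.

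The laminin receptor subunits differed from each other. Itga6, which pairs with β1 or β4 and is common on endothelial cells, lies on chromosome 2 (74070454 to 74195557, plus strand). The libraries gave a lowest, median and highest value of 97.6, 118.7 and 131.8 CPM in WT and 105.9, 159.2 and 194.2 CPM in KO. The other 4 KO libraries lay above all WT libraries, whereas KO replicate 3 (125.2 CPM) lay within the WT range and KO replicate 6 (105.9 CPM) lay below the WT median. The log2 fold change was 0.39 ± 0.13 SE (edgeR adjusted p = 0.0253; exact permutation p = 0.0433) and 0.57 without these 2 libraries. This call was lost in 7 of 22 alternative settings, among them a fit without the filter on low counts (edgeR adjusted p = 0.0584) and fits without WT replicate 4 (0.0594), WT replicate 5 (0.0566), KO replicate 1 (0.0538), KO replicate 2 (0.0553) or KO replicate 4 (0.0563).

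Itga7, the α chain of the striated muscle laminin receptor, was the member with the smallest difference. It lies on chromosome 10 (137208140 to 137232648, plus strand). Its lowest, median and highest values were 144.7, 155.7 and 163.3 CPM in WT and 141.0, 157.9 and 172.1 CPM in KO. The WT range lay inside the KO range, and KO replicates 3 and 6 were the highest KO libraries rather than the lowest. The resulting log2 fold change was 0.02 ± 0.05 SE with a 95% interval from -0.10 to 0.13 (edgeR adjusted p = 0.815; exact permutation p = 0.766).

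Of the subunits that bind RGD ligands, Itga5 and Itgav rose and Itga8 did not pass the test. Itga5, the α chain of the classical fibronectin receptor, lies on chromosome 15 (109498241 to 109522881, minus strand). The libraries gave a lowest, median and highest value of 66.4, 71.1 and 83.4 CPM in WT and 96.9, 108.3 and 115.3 CPM in KO. The groups did not overlap, and KO replicate 6 (114.5 CPM) was here the second highest of the KO libraries. The log2 fold change was 0.56 ± 0.06 SE (edgeR adjusted p = 1.25e-06; exact permutation p = 0.00216). Leaving out any 1 library gave values between 0.53 and 0.59.

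Itgav, the chain shared by the receptors for vitronectin and latent TGF-β, lies on chromosome 2 (86954376 to 87043825, plus strand). Its lowest, median and highest values were 32.9, 34.6 and 35.0 CPM in WT and 38.1, 42.5 and 49.3 CPM in KO. The WT libraries were close together (SD 0.895 CPM) and the KO libraries were spread more widely (SD 4.19 CPM), without overlap. The resulting log2 fold change was 0.34 ± 0.06 SE (edgeR adjusted p = 0.000208; exact permutation p = 0.00216).

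Itga8, which pairs with β1 and binds fibronectin, tenascin-C and nephronectin, was low in both groups. It lies on chromosome 2 (9794950 to 9998112, minus strand). The libraries gave a lowest, median and highest value of 6.24, 7.96 and 8.90 CPM in WT and 5.56, 11.2 and 13.6 CPM in KO. KO replicates 1, 2, 4 and 5 were again above all WT libraries, but KO replicate 3 (5.56 CPM) was the lowest of all 12 and KO replicate 6 (7.06 CPM) lay below the WT median. The log2 fold change was 0.37 ± 0.18 SE with a 95% interval from -0.03 to 0.76 (edgeR adjusted p = 0.111; exact permutation p = 0.19). Over the 22 alternatives it ranged from 0.26 to 0.62 and did not pass in 19 of them, with an edgeR adjusted p of 0.243 without KO replicate 4 (log2 fold change 0.26) and 0.217 without WT replicate 4 (0.30). The 3 in which it passed left out KO replicate 3 (0.48), KO replicate 6 (0.44) or both (0.62), which are its lowest KO libraries, so that a larger value follows from the choice.

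All 3 β chains rose, by very different amounts. Itgb1, the common partner chain, lies on chromosome 8 (136931962 to 136983308, plus strand). Its lowest, median and highest values were 633.6, 645.7 and 707.6 CPM in WT and 658.8, 756.6 and 800.8 CPM in KO. The same 4 KO libraries lay above all WT libraries, and KO replicates 3 (697.7 CPM) and 6 (658.8 CPM) lay within the WT range. The resulting log2 fold change was 0.18 ± 0.06 SE (edgeR adjusted p = 0.0132; exact permutation p = 0.013), and 0.16 to 0.21 with any 1 library left out.

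Itgb3, the β chain of the αvβ3 vitronectin receptor and, in platelets, of the fibrinogen receptor, lies on chromosome 11 (111108808 to 111169494, plus strand). The libraries gave a lowest, median and highest value of 2.79, 3.23 and 5.55 CPM in WT and 10.3, 14.4 and 17.0 CPM in KO. The groups did not overlap: the lowest KO library, replicate 6 (10.3 CPM), stood well above the highest WT library, replicate 3 (5.55 CPM). The log2 fold change was 2.00 ± 0.17 SE (edgeR adjusted p = 5.05e-08; exact permutation p = 0.00216) and lay between 1.93 and 2.16 with any 1 library left out. These levels rest on 69 to 476 counts per library.

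The platelet partner of β3, Itga2b, was 1.78 ± 0.270 CPM (SD, n = 6) in WT and 1.49 ± 0.512 CPM in KO (log2 fold change -0.25 ± 0.24 SE, edgeR adjusted p = 0.404). The summed level of 6 platelet markers was 8.46 to 12.4 CPM in WT and 7.50 to 12.6 CPM in KO. Of the 3 that could be tested, Gp1bb rose from 0.357 to 1.05 CPM, Ppbp fell from 0.791 to 0.223 CPM and Pf4 was 8.84 CPM in WT and 8.69 CPM in KO (edgeR adjusted p = 0.00325, 0.00765 and 0.88). The reads of Gp1bb share a span with Sept5. The defining markers Gp9, Gp6 and Treml1 were too low to test.

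Itgb5, the other β partner of αv that binds vitronectin, lies on chromosome 16 (32771600 to 32901745, plus strand). Its lowest, median and highest values were 204.0, 226.5 and 275.7 CPM in WT and 252.3, 290.6 and 340.7 CPM in KO. KO replicates 1, 4, 5 and 6 lay above all WT libraries, and KO replicates 2 (272.0 CPM) and 3 (252.3 CPM) lay within the WT range. KO replicate 6 was the highest of all 12 libraries. The resulting log2 fold change was 0.33 ± 0.08 SE (edgeR adjusted p = 0.00392; exact permutation p = 0.013).

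**Figure D2:**
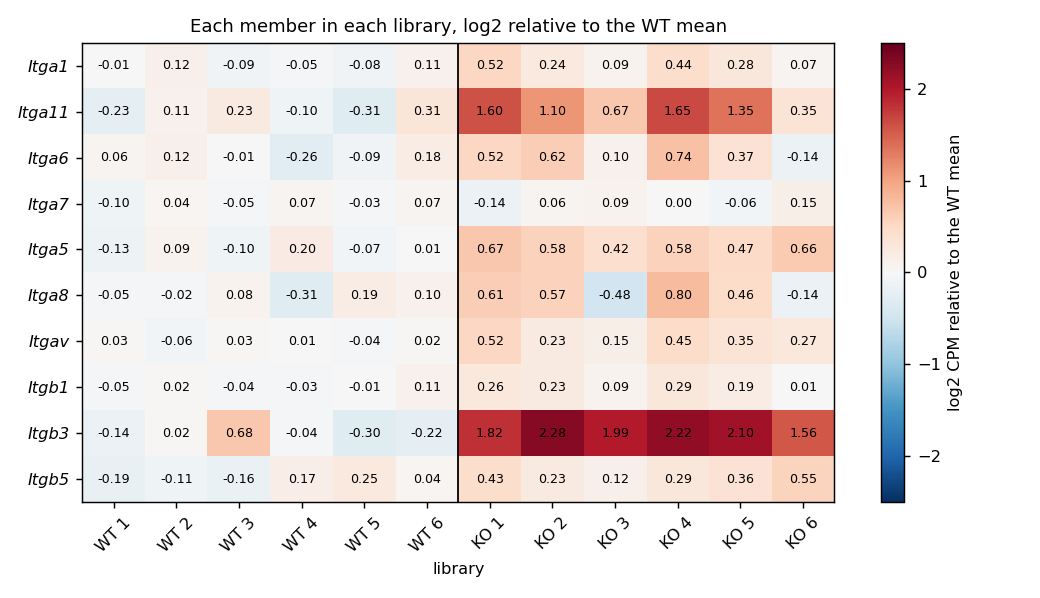
log2 CPM of each matrix-binding integrin (rows) in each library (columns) relative to the mean of the 6 WT libraries. Itgb3 is 1.56 to 2.28 higher in every KO library, Itga11 ranges from 0.35 to 1.65, and KO replicates 3 and 6 are near or below the WT mean in Itga1, Itga6, Itga8 and Itgb1 but not in Itga5 or Itgb3.

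Levels were compared between the genes per length, on the deposited FPKM (which divides by a length for each gene and by the reads of the library). In WT hearts the order was Itgb1 (323.9 ± 19.7 FPKM, SD, n = 6), Itgb5 (157.5 ± 18.9), Itga6 (45.6 ± 5.64), Itga7 (38.7 ± 2.38), Itga5 (16.6 ± 1.57), Itgav (14.2 ± 0.455), Itga1 (13.0 ± 1.13), Itga8 (3.69 ± 0.439), Itga11 (1.14 ± 0.217) and Itgb3 (0.696 ± 0.195). Itga6 and Itga7, Itgav and Itga1, and Itga11 and Itgb3 were neighbours whose ranges over the WT libraries overlapped. In KO hearts the order was the same except that Itgb3 (2.79 ± 0.536 FPKM) came before Itga11 (2.61 ± 0.930 FPKM). The ranges over the KO libraries overlapped for Itga6 and Itga7, for Itgav and Itga1, and for Itga8, Itgb3 and Itga11. β1 and β5 transcripts far outnumbered those of β3 in both genotypes. The order depends on the length used: for 7 of the 10 members the length behind the FPKM was not the gene length listed in the table, and per kilobase of the listed length Itga6 (20.8 ± 2.58) was below Itga7 (38.7 ± 2.38) in WT and Itgav (4.85 ± 0.155) was below Itga1 (13.0 ± 1.13), both without overlap. Comparisons of 1 gene between the groups do not depend on the length.

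As a share of the 7 α members, laminin receptors were lower and RGD receptors higher in KO. The summed level of Itga6 and Itga7 itself was 260.9 to 294.7 CPM in WT and 278.0 to 348.8 CPM in KO. The class shares add up to the whole, so the lower laminin share and the higher RGD share are not independent results. Other α chains, among them Itga3 and Itga9, were not in the sum. Itga6 and Itga7 together made up 63.3% ± 1.16 (SD, n = 6) of the summed FPKM of the 7 α members in WT and 60.0% ± 2.25 in KO, a difference of -3.27 percentage points (two-sided exact permutation test, p = 0.0108, adjusted over 3 classes 0.0227). Itga5, Itga8 and Itgav made up 26.0% ± 1.29 in WT and 28.8% ± 1.94 in KO, a difference of 2.75 points (exact permutation p = 0.0152, adjusted 0.0227), of which Itga5 made up 2.46, Itgav 0.223 and Itga8 0.0620. Within the laminin class the share of Itga6 differed by 1.75 points and that of Itga7 by -5.03 points. The collagen receptors made up 10.7% ± 0.255 and 11.2% ± 0.940 (exact permutation p = 0.223, adjusted 0.223). The shares of both shifted classes overlapped between the groups, and both lost their call without WT replicate 2 or WT replicate 6 (exact permutation, adjusted p = 0.0519 each). With the listed gene lengths the laminin class went from 61.8% to 56.9% and the RGD class from 23.7% to 27.7%, without overlap (exact permutation, adjusted p = 0.00325 each).

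**Figure D3:**
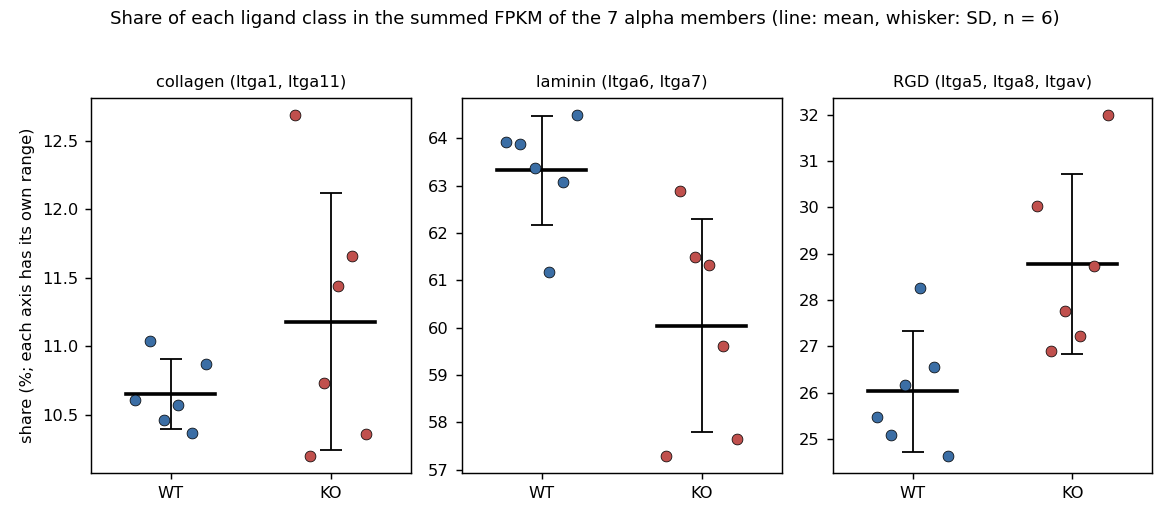
Share (y axis, percent, with its own range in each panel) of the collagen, laminin and RGD receptor subunits in the summed FPKM of the 7 α members, by library, with mean (line) and SD (whisker). The laminin share averaged 63.3% in WT and 60.0% in KO and the RGD share 26.0% and 28.8%, with some overlap of the libraries.

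Among single subunits, the share of Itga5 in the α members went from 12.5% ± 1.20 (SD, n = 6) to 15.0% ± 1.60 (exact permutation, adjusted over 10 shares, p = 0.0289) and that of Itga11 from 0.853% ± 0.127 to 1.55% ± 0.408 (adjusted p = 0.0216, exact permutation). The call of Itga5 was lost in 6 of the 12 fits that left out 1 library (without WT replicate 1, 2, 3, 5 or 6 or KO replicate 1; adjusted p between 0.0505 and 0.0722, exact permutation), and that of Itga11 in 3 (without WT replicate 1, 2 or 5; 0.0649, exact permutation). The share of Itgb3 in the 3 β members went from 0.146% ± 0.0480 to 0.491% ± 0.0879 (exact permutation, adjusted p = 0.0216). The share of Itga7 was 29.1% ± 1.42 in WT and 24.1% ± 3.87 in KO, which did not pass (exact permutation, adjusted p = 0.0703) but did with the listed lengths (40.1% and 33.7%, adjusted p = 0.0144). The shares of Itga1, Itga6, Itga8, Itgav, Itgb1 and Itgb5 did not pass under either length. Relative to the β1 chain, the summed FPKM of the 7 α members rose from a log2 ratio of -1.29 ± 0.0347 (SD, n = 6) in WT to -1.16 ± 0.0533 in KO (exact permutation p = 0.00433). The groups overlapped, with KO replicate 3 (-1.24) below WT replicate 2 (-1.235).

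The other integrin genes were examined next, since several of them share the β1 chain or αv with the members. Of 17 listed, 16 were in the table by name and 12 could be tested: 7 rose, 1 fell and 4 did not pass, with a median log2 fold change of 0.62. Of all rows tested, 25.6% rose and 25.5% fell. Itga9, whose α9β1 receptor binds tenascin-C and osteopontin, went from 50.3 ± 7.13 CPM (SD, n = 6) in WT to 103.4 ± 17.5 CPM in KO (log2 fold change 1.04 ± 0.12 SE, edgeR adjusted p = 6.59e-06), without overlap. Itga3, a further laminin receptor chain, rose from 12.3 to 21.3 CPM (log2 fold change 0.79). Itgal, the α chain of the leukocyte integrin LFA-1, rose from 2.34 to 4.15 CPM (0.83), and Itga10, a collagen receptor chain, from 2.05 to 3.41 CPM (0.73).

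Chosen after their values were seen, the remaining integrins were as follows. Itgb6, an epithelial partner of αv that activates TGF-β, fell from 4.85 ± 1.73 to 2.30 ± 1.03 CPM (SD, n = 6; log2 fold change -1.07 ± 0.30 SE, edgeR adjusted p = 0.0081). The further partner of αv, Itgb8, rose by a log2 fold change of 0.70, Itgb7 by 0.95 and Itgb4, the partner of α6 in hemidesmosomes, by 0.54. Of the 5 β partners of αv, Itgb1, Itgb3, Itgb5 and Itgb8 were higher in KO and Itgb6 was lower, while Itgb4 and Itgb7 do not pair with αv. Itga2, Itga2b, Itga4 and Itgb2 did not pass, with log2 fold changes of -0.79, -0.25, 0.13 and 0.21.

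**Figure D4:**
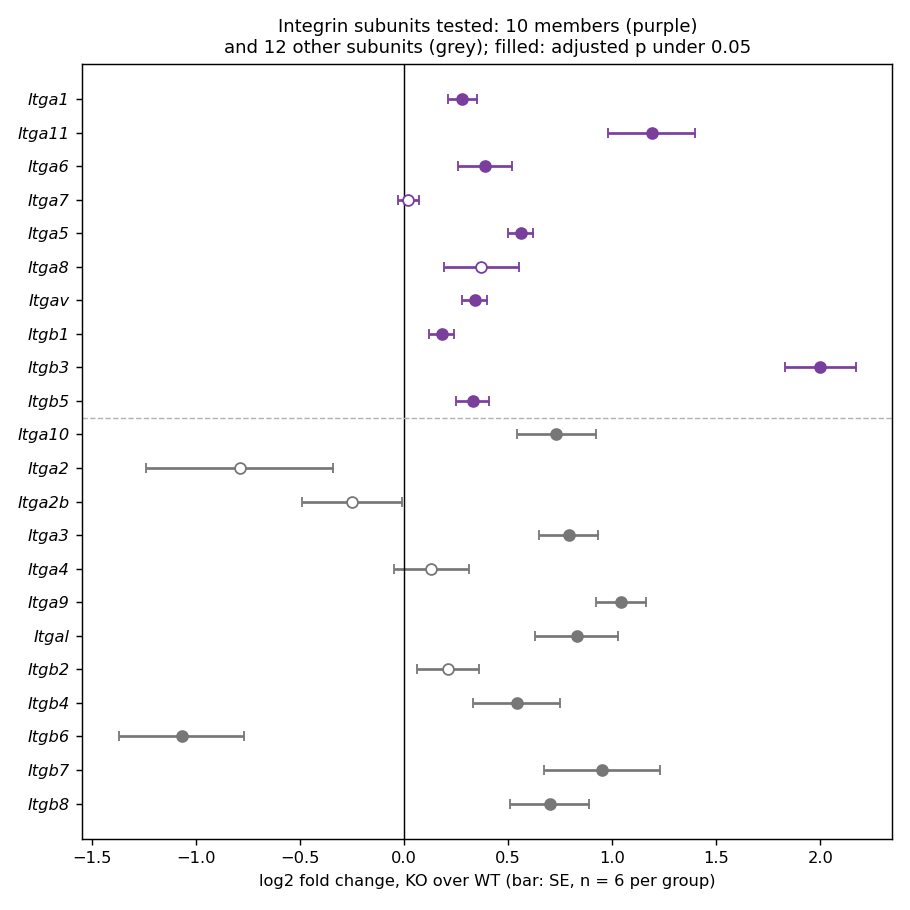
log2 fold change (x axis, KO over WT, with SE) of the 10 matrix-binding integrins (purple) and of the 12 other integrin genes that could be tested (grey); filled points passed an adjusted p of 0.05. Itgb3 (2.00) lies farthest to the right and Itgb6 (-1.07) farthest to the left.

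The genes of the ligands were compared by receptor class. The counts of each class stand beside 25.6% of all rows that were higher in KO and 25.5% that were lower. Collagen genes rose together: 9 of 10 were higher in KO and 0 lower, with a median log2 fold change of 1.11. Col1a1 and Col1a2, which form type I collagen, rose from 93.1 to 343.2 CPM and from 160.6 to 623.2 CPM (log2 fold changes 1.88 ± 0.23 and 1.96 ± 0.22 SE, edgeR adjusted p = 3.91e-05 and 1.37e-05). Col5a2, which joins the same fibrils, rose by 1.70 and the basement membrane collagen Col4a2, which shares part of its span with Col4a1, by 1.21. Col6a3, named after its values were seen, had a log2 fold change of 0.43 (edgeR adjusted p = 0.383). The summed level of the 10 genes was 1841 to 2959 CPM in WT, 5095 to 7255 CPM in the other 4 KO libraries, and 3513 and 3426 CPM in KO replicates 3 and 6. These were the lowest KO libraries not only for Itga1 and Itga11 but also for Itga6, Itga8 and Itgb1.

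Laminin genes moved in both directions, with 5 of 9 tested higher, 1 lower and a median of 0.30. Lama2, the α chain of the main laminin around muscle fibres, rose from 168.4 ± 12.2 to 272.6 ± 28.7 CPM (SD, n = 6; log2 fold change 0.70 ± 0.07 SE, edgeR adjusted p = 3.73e-07). Lama5, an α chain of vascular and epithelial basement membranes, fell from 205.9 ± 25.0 to 141.1 ± 14.0 CPM (-0.55 ± 0.08 SE, edgeR adjusted p = 3.52e-05). Lama3 and Lamc3, both low in WT, rose from 3.49 to 16.1 CPM and from 0.479 to 8.29 CPM (log2 fold changes 2.20 and 4.09). Lamc3 overlaps Golga2 in the table. Lama4 and Lamb1, named after their values were seen, did not pass (-0.02 and 0.23).

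Ligands with an RGD motif, and matricellular proteins that bind the same receptors, rose in 11 of 15 cases and fell in 2, with a median of 1.18. Postn (periostin), a ligand of αvβ3 and αvβ5 secreted by activated fibroblasts, rose from 44.3 ± 6.88 to 515.1 ± 150 CPM (SD, n = 6; log2 fold change 3.54 ± 0.21 SE, edgeR adjusted p = 5.57e-08). Tnc (tenascin-C) rose by 3.02, Thbs1 (thrombospondin 1) by 2.37 and Ccn2 (connective tissue growth factor, listed as Ctgf) by 1.77. Fn1 (fibronectin), the ligand of α5β1, was named after its value was seen and rose from 86.6 ± 14.3 to 196.2 ± 66.2 CPM (log2 fold change 1.18 ± 0.21 SE, edgeR adjusted p = 0.000687). Vtn (vitronectin) and Ccn1 (listed as Cyr61) fell by 0.47 each on the log2 scale (edgeR adjusted p = 0.0119 and 0.0325). Npnt, a ligand of α8β1, and Ltbp1 did not pass (0.33 and -0.05); Ccn1, Npnt and Ltbp1 were named after their values were seen.

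**Figure D5:**
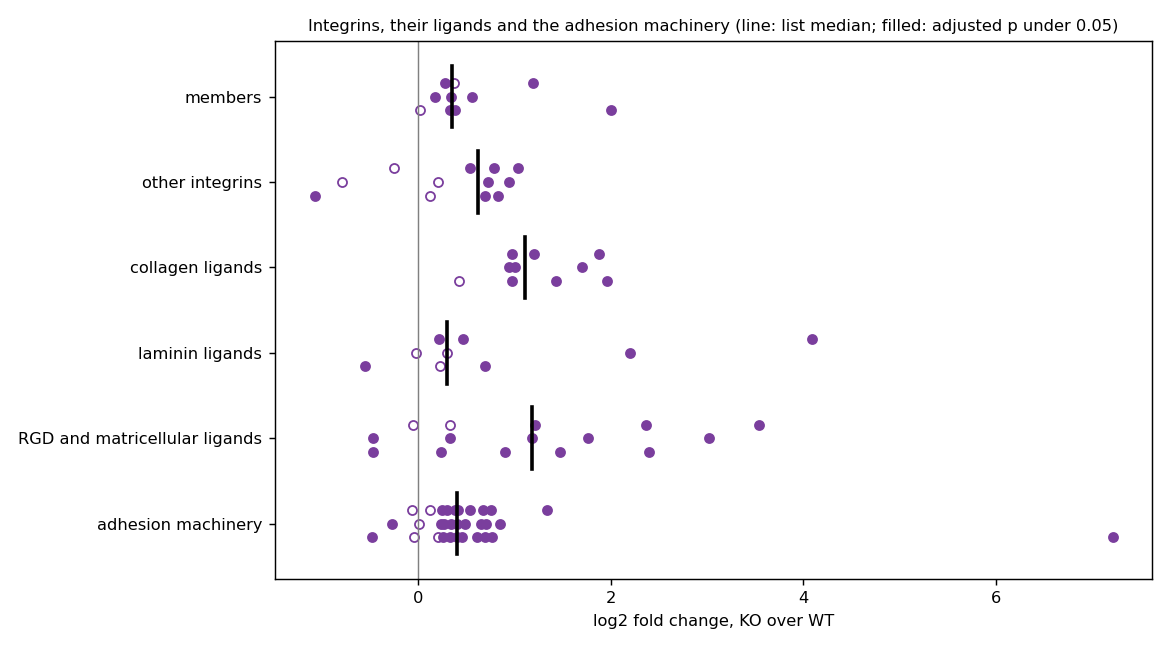
log2 fold change (x axis, KO over WT) of each tested gene of the matrix-binding integrins, the other integrins, their ligands and the adhesion machinery, with the list median as a line and filled points for an adjusted p under 0.05. The medians were 0.35, 0.62, 1.11, 0.30, 1.18 and 0.41, and the point farthest to the right is Nmrk2 (7.21).

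The proteins that couple integrin tails to actin were the last group. Of 34 listed, 31 could be tested: 24 rose, 2 fell and 5 did not pass, with a median log2 fold change of 0.41. Of all rows tested, 25.6% rose and 25.5% fell. Vcl (vinculin) rose from 149.7 ± 14.2 to 268.9 ± 25.1 CPM (SD, n = 6; log2 fold change 0.85 ± 0.07 SE, edgeR adjusted p = 4.7e-08). Tln1, the talin that activates integrins in most cells, rose by 0.70 and Parvb, which links integrin-linked kinase to actin, by 0.71. Tln1 overlaps Creb3 and Vcl overlaps Ap3m1 in the table.

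A pair of muscle proteins that bind the β1 tail went in opposite directions. Nmrk2, a nicotinamide riboside kinase also known as muscle integrin binding protein, rose from 4.09 ± 0.435 to 604.6 ± 174 CPM (SD, n = 6; log2 fold change 7.21 ± 0.26 SE, edgeR adjusted p = 9.92e-10), and it shares its span with an unnamed row. Itgb1bp2 (melusin), a chaperone-like protein of striated muscle, fell from 164.2 ± 8.40 to 117.3 ± 18.4 CPM (-0.48 ± 0.08 SE, edgeR adjusted p = 0.0001). Tln2, the talin enriched in striated muscle, fell from 91.8 to 75.9 CPM (-0.27, edgeR adjusted p = 0.00362), and Fermt2, the kindlin of cardiomyocytes, was 343.5 CPM in WT and 329.8 CPM in KO (-0.06, edgeR adjusted p = 0.349). Both were named after their values were seen, as were Lims1, Ptk2b, Sharpin and Rsu1, the remaining ones that did not pass (-0.04, 0.21, 0.01 and 0.13).

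Markers of the cell types that carry these integrins were read from the same libraries. Over all rows tested, 25.6% were higher in KO and 25.5% were lower. Of 10 fibroblast markers 8 rose and 2 fell, and their summed level was 2542 to 3239 CPM in WT and 3166 to 3863 CPM in KO, with KO replicates 6 and 3 at 3166 and 3253 CPM. Pdgfra, a defining receptor of cardiac fibroblasts, rose from 75.6 to 138.3 CPM (log2 fold change 0.87), Mfap5 by 2.59, Pcolce by 1.36 and Dcn (decorin) by 0.63. The 2 that fell, named after their values were seen, were Dpt (-0.46) and Gsn (-0.29). Gsn, the most abundant of the list, went from 1719 to 1408 CPM. Of 10 endothelial markers 6 rose and 1, Tek, fell, and their sum was 1766 to 1931 CPM in WT and 1957 to 2416 CPM in KO. Flt1, a VEGF receptor, rose by 0.90, Esam by 0.42 and Emcn by 0.34, Tek had -0.30, and the list median was 0.26. Cdh5, Tie1 and Robo4, named after their values were seen, did not pass (0.07, 0.1 and 0.13). Among the KO libraries the endothelial sum was lowest in replicate 3, as were Itga5, Itga8, Itgav and Itgb5. The sums of the mural markers, laminin ligands, RGD ligands and adhesion machinery were also lowest there. Itga1, Itga6, Itga11, Itgb1 and Itgb3 were lowest in KO replicate 6, where the endothelial sum was 2260 CPM, and Itga7 in KO replicate 1.

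Of 10 cardiomyocyte markers 1, Mybpc3, rose and 5 fell, with sums of 54650 to 60190 CPM in WT and 46910 to 64210 CPM in KO, the highest in KO replicate 3. Tnni3 (cardiac troponin I) went from 3784 CPM down to 2043 CPM (log2 fold change -0.89), Pln (phospholamban) had -0.79 and Myl3 -0.30. Of 10 mural cell markers 3 rose and 3 fell, near the shares over all rows (25.6% and 25.5%). Pdgfrb had a log2 fold change of 0.61, Abcc9 of -0.73, Notch3 of 0.19 and Vtn of -0.47. The mural sums were 1900 to 2086 CPM in WT and 1727 to 2289 CPM in KO, with KO replicates 3 and 6 at 1727 and 1754 CPM. Of 9 leukocyte markers tested 1, Mrc1, rose and 2, Csf1r and Adgre1, fell (sums of 245.4 to 335.5 CPM in WT and 241.1 to 395.9 CPM in KO). Among the rest, C1qa did not pass (log2 fold change 0.17, edgeR adjusted p = 0.298). No defining marker of the fibroblast, endothelial, mural or cardiomyocyte list was at 0. The part of these shifts in the levels of the integrins was not tested.

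For each member, the gene with the most similar values over the 12 libraries was sought among 10043 annotated rows with a mean of at least 5 CPM, by the root mean square difference of log2 CPM relative to the WT mean. The nearest row to Itga11 was Fbn1 (fibrillin 1; difference 0.154), that to Itga8 was Ecm2 (0.130) and that to Itgb3 was Col14a1 (0.279), and each of these encodes a protein of the extracellular matrix. Fbn1 had a log2 fold change of 1.22, Ecm2 of 0.45 and Col14a1 of 2.00. These lie near the members' own values because the rows were chosen by those values. Their differences were the largest among the members, and the share of matrix genes among rows with similar values was not tested. The nearest rows to Itga5 and Itga6 were Arpc2 (0.0830), a subunit of the Arp2/3 complex, and Tpm4 (0.0853), a cytoskeletal tropomyosin. Those to Itga1, Itga7, Itgav, Itgb1 and Itgb5 were Ttc37 (0.0718), Ddx42 (0.0509), Rab3gap2 (0.0602), Adgre5 (0.0459) and Serinc3 (0.0644).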

How the data were processed

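Poly-A mRNA was sequenced in 6 WT and 6 KO libraries of ventricular wall. The raw counts per gene were deposited by the authors, who counted reads with HTSeq, and the submitters' processing notes name HISAT2 2.0.5 and mm10. The row identifiers are those of the C57BL/6NJ assembly, so members' positions are on that assembly and only the promoters are on GRCm38.p6. The strand setting is not given in the sources used here. The FPKM values deposited by the authors equal counts divided by the library total and by a fixed length per gene, which lay within 1% of the listed length in 31% of the 13572 rows with over 20 counts in every library. Columns of the authors' own comparison (group means, fold changes and p-values) were not used, and 0 further columns of samples were left aside.

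Counts were filtered with filterByExpr, scaled by TMM and compared by the quasi-likelihood test with robust dispersions (edgeR 4.0.16, R 4.3.3), with Benjamini-Hochberg adjustment over 17155 rows. Shares and single genes were compared by two-sided exact permutation tests over the 12 libraries, whose smallest p is 0.00216. The precision of a value is that of its counts, given for the low members. On simulated counts for 16670 genes, 175 of 193 changed genes were recovered with 7 false calls. For small log2 fold changes, such as 0.18 for Itgb1, recovery was not tested. Recovery where as many rows differ as in the data (25.6% higher and 25.5% lower in KO) was not tested either. Alternatives were other normalizations, filters and tests (DESeq2 1.42.0, limma-voom in limma 3.58.1, glmTreat), a replicate block and each library left out. Leaving out KO replicates 3 and 6 together and using the listed gene lengths were chosen once the data were known.

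The members and the gene lists were chosen with earlier results of these data known. Named genes were the 10 members, the 4 rows of each other list with the smallest p, Itgb1bp2, Nmrk2, the nearest row to each member and Sdhaf4; others are marked in the text. Unmatched by name were Itgax, Actn2, Itgb1bp1 and Lyz2.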

Additional observations from a re-analysis of the deposited data

Results flagged for a closer look

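Itgb3 was 5.55 CPM in WT replicate 3, apart from the other 5 WT libraries, which lay between 2.79 and 3.50 CPM. The gap to the nearest of these was 0.741 of the whole WT range, above Dixon's critical value for 6 samples. Of the 28 groups of 6 values examined this was the 1 so marked, and chance marks about 1 in 20, or 1.4 of 28. The KO libraries (10.3 to 17.0 CPM) all lay above it, and without WT replicate 3 the log2 fold change of Itgb3 was 2.16 in place of 2.00.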

How the results depend on the processing

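The count of members higher in KO was between 7 and 9 of 10 in the 22 alternatives, the count lower was 0 in all of them, and no member that had passed the test reversed its direction (Itga7, which had not, ranged from -0.03 to 0.05). With any 1 library left out the higher count was between 7 and 9, that past the strict thresholds was 2, the laminin share differed by -3.84 to -2.72 points and the RGD share by 2.10 to 3.19 points. Only Itgb3 passed the strict thresholds (a count of 1 in place of 2) with the replicate block and with glmTreat, which tests against a log2 fold change of 1. For the α subunit shares, calls changed for Itga5 in 6 of 14 alternatives, Itga11 in 3 and Itga7 in 4. Replicate numbers are shared by WT and KO labels without a stated meaning: same-numbered libraries correlated at -0.162 to 0.0243 and 1 of 6 correlated best with its own number, so the replicate block, under which 7 members were higher (Itga6 lost its call, edgeR adjusted p = 0.0732), was not used. The low members Itga8, Itga11 and Itgb3, with as few as 157, 96 and 69 counts in a library, are those whose values depth limits most.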
